A study of Homo sapiens with 2 samples.

Results

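The genes described here encode the translation initiation factors of the cytosol, read out by RNA sequencing in PLC cells, an established human liver cancer cell line. They were taken by name: every gene of the deposited tables whose symbol starts with EIF1 to EIF6, without the kinases named EIF2AK and without hyphenated names. This gave 52 of 26228 gene names present in both libraries. There is 1 library of PLC cells carrying the empty vector (EV, genotype given as WT, no treatment) and 1 library of PLC cells with PRSS35 over-expression (no treatment). PRSS35 is a secreted protein of the serine protease family. Both lines were made by lentiviral infection and puromycin selection and grown in the same glucose-rich medium, and both therefore carry the vector. Whether a line derives from 1 clone is not given in the sources used here. With 1 library per condition no difference has a replicate check, no p-value is given, and an effect of PRSS35 and chance variation among dishes cannot be told apart. In bulk RNA, fewer cells of a kind and less RNA per cell cannot be told apart either.

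Initiation factors bring the small ribosomal subunit, the initiator tRNA and the mRNA together. The trimer eIF2 carries the initiator tRNA, and its exchange factor eIF2B recharges it with GTP. The large complex eIF3 binds the small subunit, while eIF4F, made of the cap-binding protein EIF4E, the helicase EIF4A1 and the scaffold EIF4G1, binds the capped mRNA end. In liver cancer, as in other tumours, cap-dependent initiation is known as an output of growth signalling through mTORC1, which inactivates the 4E-binding repressors, and EIF4E is a textbook target of MYC.

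Levels are given as FPKM, the number of fragments relative to transcript size and to sequencing depth, as the authors' Cufflinks run estimated them, with its lower and upper bound in parentheses. These bounds describe the estimate inside 1 library and hold nothing of the spread among cultures. The number of reads per gene was not used here. Changes are log2((FPKM in PRSS35 + 1) / (FPKM in EV + 1)), and SE stands for the error that the bounds imply. A gene was counted when its mean FPKM was at least 1 and its locus was not joined with another gene by the assembly, which left 9667 genes, among them 41 initiation factors. The targeted gene fits the labels, as PRSS35 had an FPKM of 0.643 in EV and 1836 in PRSS35 cells. All 10 liver cell markers that had been listed were counted, with TTR the lowest at 1.56 FPKM in EV and 1.61 in PRSS35. Among 9 markers of leukocytes, endothelium and fibroblasts, PTPRC, CD3E and DCN were listed at 0 in both libraries, and the other 5 with a locus of their own were at 0.754 FPKM or less. CD68 sat in a joined locus, so that its level is not resolved.

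Of the 52 names, 5 belong to joined loci. EIF3C and its copy EIF3CL shared both of their loci on chromosome 16, and in PRSS35 the assembly added NPIPB6 to 1 of these. EIF4A1 was joined with SENP3 and TNFSF12 and TNFSF13, EIF6 with MMP24-AS1, and EIF4EBP3 with ANKHD1. Another 6 names were under the filter. EIF1AD and EIF4E3 and the pseudogene EIF3IP1 were listed at 0 in both libraries. EIF4E1B was listed at 0 in EV and at 0.0749 FPKM (0 to 0.150) in PRSS35, and EIF5AL1 was at 0.107 (0.0451 to 0.169) and 0.0669 (0.0109 to 0.123). A Y-linked member is the sixth, and its values are not given. A listed 0 may be a failed estimate and is not read as absence.

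The family holds near-identical copies, and the sequences below show how close they are. The eIF5A proteins are the only ones known to carry hypusine, an amino acid made from 1 of their lysines and needed for their action on the ribosome. The stretches below are the coding bases of codons 42 to 58 in the GENCODE transcripts on GRCh37, the assembly that hg19 names, with the codon of this lysine, codon 50, in capitals.

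EIF5A: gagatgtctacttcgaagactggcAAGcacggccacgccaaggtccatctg

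EIF5A2: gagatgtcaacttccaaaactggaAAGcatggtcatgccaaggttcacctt

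EIF5AL1: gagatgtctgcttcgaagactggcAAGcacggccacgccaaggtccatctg

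In EIF5A the codon lies in exon 2 at chr17:7213102-7213104 on the plus strand, and in EIF5A2 in exon 2 at chr3:170625446-170625448 on the minus strand. In EIF5AL1, which has 1 exon, it lies at chr10:81272553-81272555 on the plus strand. EIF5AL1 differed from EIF5A at 1 of these 51 bases and at 5 of the 462 coding bases, while EIF5A2 differed at 10 of the 51. Of the 50-base stretches of the EIF5A transcript, 36.8% also occur in EIF5AL1. EIF5A was nevertheless listed at 2878 FPKM (2758 to 2998) in EV and 3178 (2577 to 3780) in PRSS35, against 0.107 and 0.0669 for EIF5AL1, and how the authors' counting split the shared reads is not known.

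For the other members the shared part ranged from nothing to nearly everything. EIF3C and EIF3CL had 98.8% and 98.7% of their 50-base stretches in common, so only their summed level can be used. For EIF4B the share found in other genes was 33.0%, for EIF4A1 29.0%, for EIF2S2 23.5%, for EIF4E 20.9% and for EIF2S3 20.1%. EIF4B shared most with EIF4BP6, EIF4A1 with EIF4A1P10, EIF2S2 with EIF2S2P4 and EIF4E with EIF4EP2, all of which carry the names of pseudogenes. The levels of these genes are therefore uncertain, and by how much was not tested.

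The 41 counted factors were abundant. Their median was 45.2 FPKM in EV and 49.0 in PRSS35, against 9.04 and 9.64 for all counted genes, and 90.2% of them reached 10 FPKM in EV against 48.0% of all. EIF5A ranked 47 in EV and 42 in PRSS35 among all names. EIF5A, EIF1 and EIF4EBP1 together made up 59.0% of the summed FPKM of the singly named members in either library. The order of the levels was nearly the same in both libraries, with a Spearman coefficient of 0.99 over the 41 genes, a description of 2 libraries from 1 cell line. The precision was good at these levels, since the distance from FPKM to its upper bound had a median of 4.81% in EV and 5.32% in PRSS35.

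**Figure D1:**
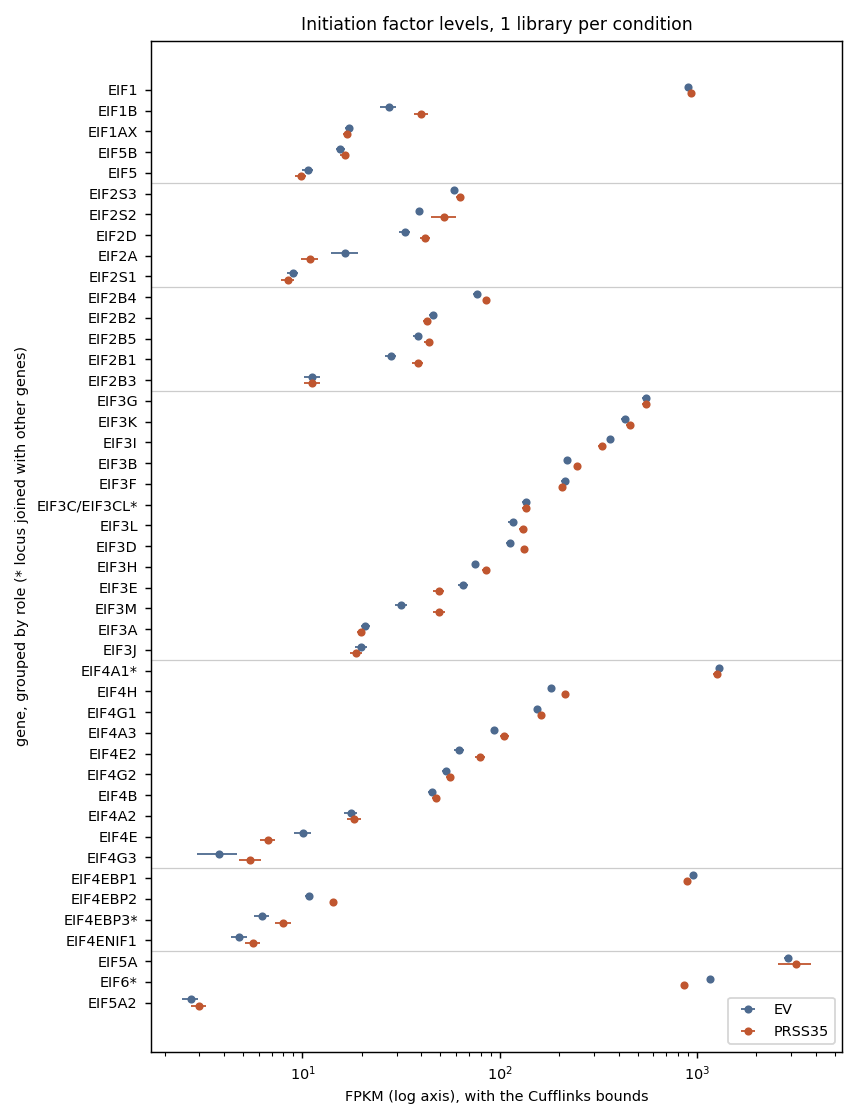
FPKM of 45 rows of initiation factors in EV (blue) and PRSS35 (orange) on a log axis, with the Cufflinks bounds as bars. Genes are grouped by role and ordered by their EV level, EIF3C and EIF3CL share a row, and a star marks a joined locus. Levels run from EIF5A2 at 2.71 to EIF5A at 2878 FPKM in EV, and the points of most genes nearly coincide.

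No initiation factor differed by 2-fold. Of the 41, 0 passed 2-fold upward in PRSS35 and 0 passed it downward, when 1.89% of all counted genes were higher and 1.88% lower. At 1.5-fold and the pseudocount of 1 FPKM, 1 was higher (EIF3M) and 0 were lower, against 4.38% and 3.56% of all genes. With shares this small, a set of 41 genes would hold few or none, so these counts do not set the factors apart. The count depends on the settings, since with a pseudocount of 0.1 FPKM 2 factors, EIF2A and EIF4E, were also lower, against 4.52% of all genes. After centring on the median gene these 2 were lower and 0 were higher, against 4.24% and 3.53%. The median log2 change was 0.09, with a range from -0.56 to 0.62, and that of all counted genes was 0.06. In size, without regard to sign, the median was 0.14 for the factors and 0.17 for all genes. A value above 0 was seen in 28 of the 41, or 68.3%, against 60.9% of all genes. When FPKM is rescaled to the total of every locus, unnamed assembled loci included, the median of all genes moves from 0.06 to 0.69. That of the factors moves to 0.77, and all 41 lie above 0. By 2-fold 8 of them are higher and 0 lower, against 1156 and 107 of the 9667 counted genes. Directions below are those of the deposited FPKM, and under that scaling every lower value of a factor turned positive while staying below the median gene. When FPKM is rescaled to the total of named loci only, the factor median is 0.13 and that of all genes 0.10. The factors then run from -0.52 to 0.67. By 2-fold 0 of them are higher and 0 lower, against 192 and 175 of the 9667 counted genes.

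The bounds of the libraries overlapped for 20 of the 41 factors. For 16 factors the lower bound in PRSS35 lay above the upper bound in EV, and for 5 the upper bound in PRSS35 lay below the lower bound in EV. Over all counted genes with 1 locus in each library these shares were 24.9% and 14.0%, against 39.0% and 12.2% of the factors. With the changes centred on the median gene, 10 were above and 9 below, against 18.1% and 18.9% of all genes, so the excess of higher over lower factors depends on this choice. The bounds of abundant genes are narrow, and the distance from FPKM to its upper bound had a median of 8.52% over all genes in EV. Among the 12 factors that kept the annotated locus in both libraries, 3 were apart and higher, against 559 of 2382 genes. Of the 21 assembled anew in both it was 8, against 1260 of 5165. Of the 4 assembled anew in PRSS35 only it was 3, against 402 of 1096. Of the 4 assembled anew in EV only it was 2, against 179 of 1024. Among the 5 apart and lower, 1 kept the annotated locus and 4 were assembled anew in both. The part of assembly in these differences was not tested.

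**Figure D2:**
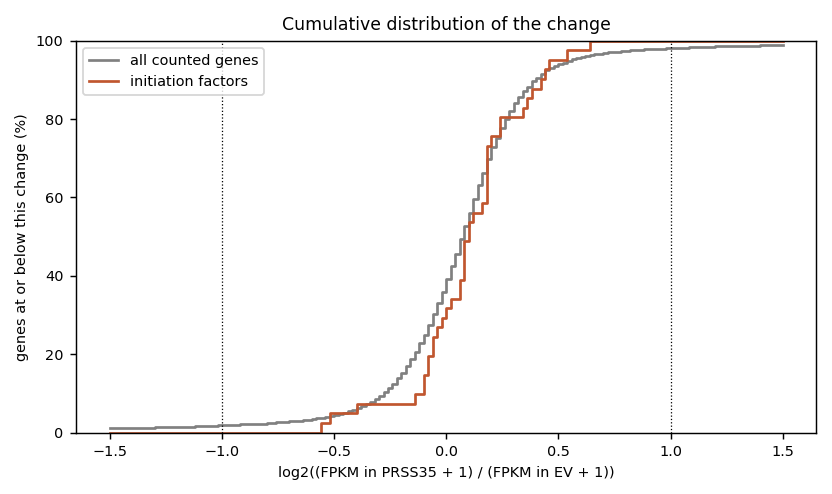
Cumulative share of genes (percent) against log2((FPKM in PRSS35 + 1) / (FPKM in EV + 1)), for the 41 counted initiation factors (orange) and all 9667 counted genes (grey), with 2-fold as dotted lines. All factors lie inside the dotted lines, between -0.56 and 0.62. After rescaling to the total of every locus, all of them would lie above 0. Rescaled to the total of named loci only, they would lie between -0.52 and 0.67.

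**Figure D3:**
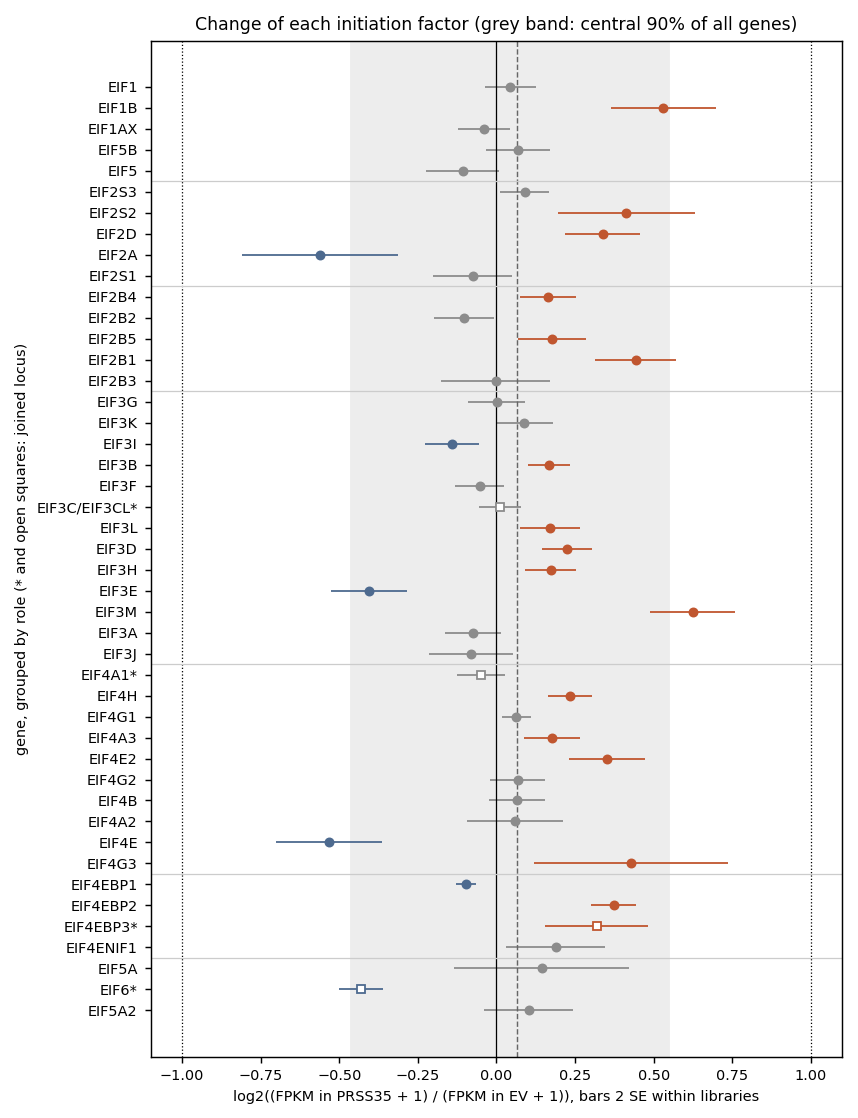
Log2 change of each initiation factor with 2 SE from the within-library bounds, grouped by role. Orange points have bounds apart and higher in PRSS35, blue points bounds apart and lower, grey points overlapping bounds, and open squares are joined loci. The grey band holds the central 90% of all counted genes and the dashed line their median of 0.06. EIF3M and EIF2A lie farthest out at 0.62 and -0.56. After rescaling to the total of every locus the blue points turn positive, and after rescaling to the total of named loci only they stay negative.

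The factors that select the start site and scan the mRNA comprise EIF1 and its paralog EIF1B, EIF1AX, EIF5, the GTPase-activating protein of eIF2, and EIF5B, which joins the ribosomal subunits. EIF1, which guards start codon recognition, was the most abundant, with 904.1 FPKM (868.0 to 940.3) in EV and 931.9 (895.2 to 968.5) in PRSS35. EIF1B, at chr3:40351173-40353915 of hg19, was at 27.3 FPKM (24.8 to 29.8) in EV and 39.9 (36.8 to 43.0) in PRSS35, a log2 change of 0.53 (SE 0.08), the highest of this group. EIF5 was the lowest by level, with 10.6 FPKM in EV and 9.81 in PRSS35, and also by change at -0.11. EIF1B was the only gene of these 5 whose bounds did not overlap. EIF1AX had 17.2 and 16.7 FPKM and EIF5B had 15.6 and 16.4.

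The subunits of eIF2 were unequal in RNA level. EIF2S1 encodes the alpha subunit, whose phosphorylation by the eIF2 kinases slows initiation, and was lowest in both libraries, at 8.90 FPKM (8.36 to 9.44) in EV and 8.40 (7.76 to 9.03) in PRSS35. EIF2S3, the gamma subunit that binds the initiator tRNA, was at 58.8 (57.3 to 60.4) and 62.7 (59.7 to 65.7), or 6.61 and 7.47 times the alpha subunit. EIF2S2, the beta subunit, stood at 39.1 (37.6 to 40.5) and 52.4 (44.6 to 60.1), a log2 change of 0.41 (SE 0.11). It was the highest change of the eIF2 and initiator tRNA group. Its locus kept its annotation in EV and was assembled anew in PRSS35, where its bounds are wider. Besides the trimer, EIF2A and EIF2D can bring a tRNA to the ribosome by other routes. EIF2A, at chr3:150264570-150303803 in EV, had the lowest change of all 41, from 16.5 FPKM (14.0 to 19.1) in EV to 10.9 (9.81 to 11.9) in PRSS35, a log2 change of -0.56 (SE 0.12). EIF2D was instead the higher in PRSS35, with 33.0 (30.9 to 35.0) in EV and 42.0 (39.5 to 44.4). The locus of EIF2D, like that of EIF2S2, kept its annotation in EV and was assembled anew in PRSS35. The bounds of the libraries were apart and lower in PRSS35 for EIF2A, and apart and higher for EIF2S2 and EIF2D.

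The 5 subunits of eIF2B spanned 6.82-fold in EV and 7.66-fold in PRSS35. EIF2B4 was the highest at 76.3 and 85.6 FPKM and EIF2B3 the lowest at 11.2 in both. Bounds were apart and higher in PRSS35 for EIF2B1, EIF2B4 and EIF2B5. EIF2B1, the alpha subunit, differed most, from 28.0 FPKM (26.1 to 29.9) to 38.5 (36.1 to 40.9), a log2 change of 0.44 (SE 0.06). EIF2B2 had 46.1 and 42.9, with overlapping bounds.

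The 13 subunits of eIF3 spread over 27.8-fold in EV and 29.5-fold in PRSS35, taking the summed EIF3C and EIF3CL loci as 1 subunit. EIF3G, an RNA-binding subunit, was the highest with 551.2 FPKM in EV and 551.8 in PRSS35, followed by EIF3K with 430.8 and 457.9 and EIF3I with 362.0 and 328.3. EIF3J, which is loosely bound to the complex, was the lowest with 19.8 and 18.7. EIF3A, the largest subunit and a scaffold, was next with 20.8 and 19.7, and the bounds of EIF3A and EIF3J overlapped in each library. EIF3C and EIF3CL summed to 135.4 and 136.5. In EV the neighbours EIF3B and EIF3F, and EIF3L and EIF3D, also overlapped. In PRSS35 EIF3C, EIF3D and EIF3L overlapped, as did EIF3E and EIF3M.

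Within eIF3 the highest and the lowest change belonged to EIF3M and EIF3E, both subunits of its core. EIF3M, at chr11:32605313-32624419, was at 31.7 FPKM (29.6 to 33.9) in EV and 49.4 (46.1 to 52.8) in PRSS35, a ratio of 1.56 and a log2 change of 0.62 (SE 0.07). With a pseudocount of 1 FPKM it alone passed 1.5-fold, and after centring on the median gene it was at 0.56, under that threshold. EIF3E, at chr8:109213972-109260959, was at 65.2 (61.4 to 69.0) in EV and 49.0 (46.0 to 52.1) in PRSS35, a log2 change of -0.40 (SE 0.06). The level of EIF3E was 2.06 times that of EIF3M in EV and 0.992 times in PRSS35. Both loci were assembled anew in both libraries, and the part of assembly in these changes was not tested. Among the other subunits, EIF3I had bounds apart and lower, and EIF3B, EIF3D, EIF3H and EIF3L bounds apart and higher, with log2 changes from 0.17 to 0.22.

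In eIF4F the cap-binding protein was by far the least abundant in RNA. EIF4E, at chr4:99799607-99851786, was at 10.1 FPKM (9.09 to 11.1) in EV and 6.66 (6.10 to 7.23) in PRSS35, a log2 change of -0.53 (SE 0.08). EIF4G1, the scaffold, had 155.3 (151.8 to 158.9) and 162.4 (158.7 to 166.1), which overlap. The joined locus of the helicase EIF4A1 had 1299 (1250 to 1348) and 1256 (1209 to 1303), and part of this signal may belong to the other genes of the locus. From EIF4E to this locus the range was 129-fold in EV and 189-fold in PRSS35.

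EIF4E2 encodes a second cap-binding protein, which is known to repress certain mRNAs and to take part in initiation under low oxygen. It was at 62.2 FPKM (58.3 to 66.1) in EV and 79.6 in PRSS35, with bounds apart. EIF4E2 thus exceeded EIF4E by 6.16-fold in EV and by 11.9-fold in PRSS35. This ratio differed by 0.95 on the log2 scale between the libraries (SE 0.11), the largest difference among the 7 paralog pairs compared, and it does not depend on how the libraries are scaled. Both loci were assembled anew in both libraries.

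The helicase partners and scaffolds differed less in ratio, apart from EIF4G3. EIF4H, a cofactor of the helicase, was at 181.2 FPKM (175.0 to 187.4) and 213.3 (206.2 to 220.5). EIF4A3, a helicase of the exon junction complex rather than of initiation, was at 93.2 (90.3 to 96.1) and 105.5 (99.9 to 111.1). Its locus kept its annotation in EV and was assembled anew in PRSS35. EIF4G3, a scaffold paralog, was the lowest of the group at 3.79 (2.90 to 4.67) and 5.44 (4.75 to 6.14), with wide bounds that just failed to meet. EIF4B and EIF4A2, at 45.2 and 17.6 FPKM in EV, and EIF4G2, which acts in cap-independent initiation, overlapped between the libraries. EIF4G1 exceeded EIF4G2 by 2.91-fold in EV and 2.90-fold in PRSS35.

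The repressors that bind EIF4E were led by EIF4EBP1, with 951.5 FPKM (936.8 to 966.1) in EV and 890.2 (876.0 to 904.3) in PRSS35. This is 94.3 times the level of EIF4E in EV and 133.6 times in PRSS35. Its log2 change of -0.10 was small, and its bounds were apart since they span only 1.54% on either side in EV. EIF4EBP2 was at 10.8 (10.4 to 11.2) and 14.3 (13.8 to 14.8), so that the ratio of EIF4EBP1 to EIF4EBP2 was 88.2 in EV and 62.4 in PRSS35. EIF4ENIF1, which carries EIF4E into the nucleus, was the lowest at 4.79 and 5.59, and the joined locus of EIF4EBP3 and ANKHD1 had 6.22 and 8.01.

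Of the factors that act outside start site selection, EIF5A2 was at 2.71 FPKM (2.45 to 2.97) in EV and 2.98 (2.71 to 3.25) in PRSS35, and EIF5A exceeded it by 1063-fold and 1067-fold. The bounds of EIF5A in PRSS35 span 18.9% on either side, against 4.17% in EV, so the change of EIF5A is the least precise among the abundant members. The joined locus of EIF6, which keeps the ribosomal subunits apart, and MMP24-AS1 was at 1159 FPKM (1119 to 1199) in EV and 859.8 (829.8 to 889.9) in PRSS35, a log2 change of -0.43. The same genes were joined in both libraries, and which of them carries this difference was not tested.

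**Figure D4:**
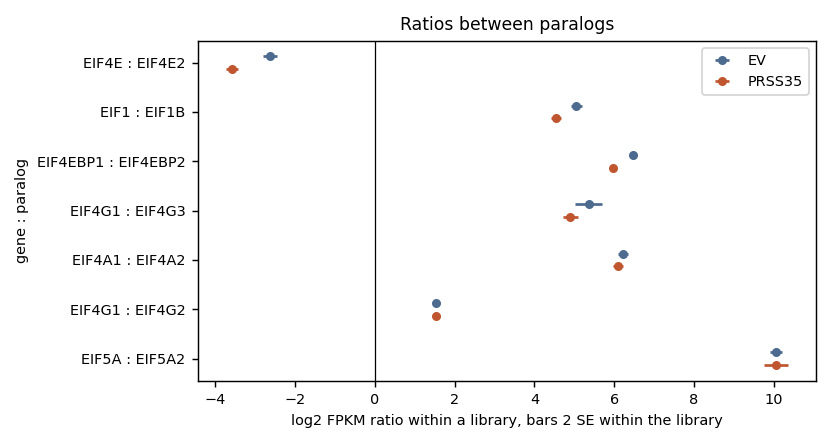
Log2 ratio of the FPKM of a gene to that of its paralog within EV (blue) and PRSS35 (orange), with 2 SE from the within-library bounds. EIF4E lies below EIF4E2 in both libraries, and this pair differs most between them, by 0.95. The pairs EIF5A with EIF5A2 and EIF4G1 with EIF4G2 coincide.

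Letters of known promoter elements, which the choice by name did not use, were counted in the promoters, and none occurred in most members. RefSeq promoters on GRCh38.p14, each 300 bases from 250 before to 50 after the annotated start, were found for 42 members. The E-box CACGTG, which reads the same on both strands, occurred in 11 of the 42, or 26.2%, against 7.43% of 27305 promoters and 10.4% of the promoters of counted genes. A C followed by at least 4 pyrimidines at the annotated start, the letters of the terminal oligopyrimidine tract by which mTORC1 controls translation, was seen in 9, or 21.4%, against 4.04% and 5.35%. The ETS core CCGGAAG, on either strand, occurred in 23.8%, against 10.7% and 19.9%. The TATA box TATAAA, on either strand, was in 2 promoters, or 4.76%, against 12.0% and 4.98%. YY1 core letters AAGATGG, on either strand, were found in 9.52%, against 6.06% and 8.24%. The letters TGACGTCA, found in 1.98% of all promoters and 3.49% of those of counted genes, were in 0 of the 42. TGATGNAA (3.67% and 1.41%) and the NRF1 core (1.36% and 2.44%), each on either strand, were also in 0, and at such shares a set of this size would hold few or none. The shares for ETS, TATA and YY1 were near those of counted genes.

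The 250 bases before the start are printed for EIF4E, the lowest factor of eIF4F, and for EIF3M, the factor with the highest change. Capitals mark both copies of the E-box in EIF4E and the ETS core in EIF3M.

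EIF4E, chr4:98929134-98929383 of GRCh38.p14, minus strand: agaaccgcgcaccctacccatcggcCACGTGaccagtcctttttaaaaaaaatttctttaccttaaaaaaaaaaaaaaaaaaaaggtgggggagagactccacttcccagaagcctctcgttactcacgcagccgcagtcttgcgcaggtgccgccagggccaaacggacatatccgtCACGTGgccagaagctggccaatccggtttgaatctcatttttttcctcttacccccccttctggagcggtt

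EIF3M, chr11:32583581-32583830 of GRCh38.p14, plus strand: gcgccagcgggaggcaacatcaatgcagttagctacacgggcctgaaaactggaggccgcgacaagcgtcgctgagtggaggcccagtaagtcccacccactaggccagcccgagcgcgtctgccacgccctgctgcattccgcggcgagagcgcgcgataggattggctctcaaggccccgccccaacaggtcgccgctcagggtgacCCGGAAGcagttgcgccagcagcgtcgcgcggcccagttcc

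The factors with these letters had changes of both signs. Among the 10 counted factors with an E-box the log2 change ran from -0.53 for EIF4E to 0.53 for EIF1B, with a median of 0.08. Among the 9 with the pyrimidine start it ran from -0.56 for EIF2A to 0.62 for EIF3M, with a median of 0.09. A match is a description of letters and not of a bound site.

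The level of a factor went with the base composition of its mRNA. Across the 41 factors the Spearman coefficient between the GC content of the GENCODE coding sequence and FPKM was 0.59 in EV and 0.57 in PRSS35, and over 8617 counted genes with a coding sequence it was 0.33 and 0.33. Across the 12 singly named eIF3 subunits it was 0.85 and 0.86. The 15 factors below 45% GC had a median of 17.6 FPKM in EV and the 6 at 55% or more had 217.7. Among all genes these medians were 3.94 and 19.5. Transcript length went the other way, with -0.49 across the factors in EV and -0.38 across all genes. FPKM is itself scaled by transcript length, and the GENCODE lengths used here may differ from those of the authors' run. How much of the values for length comes from this was not tested. These coefficients are across genes that share a library and its base composition, and the same pair of libraries gave 0.12 between GC content and the log2 change of the factors.

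**Figure D5:**
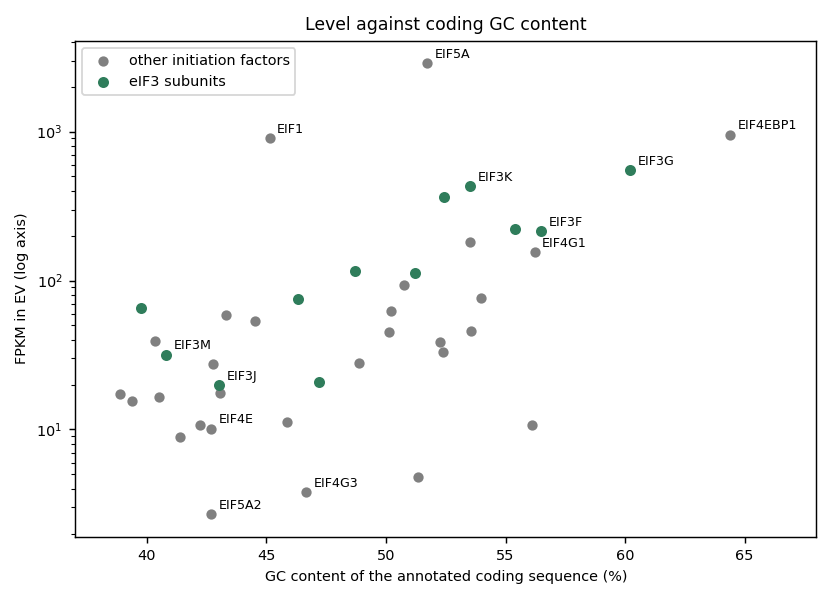
FPKM in EV on a log axis against the GC content of the annotated coding sequence (percent) for the 41 counted initiation factors, with the 12 singly named eIF3 subunits in green. Among the subunits EIF3G is highest in both, at 60.2% GC and 551.2 FPKM, but EIF3E, lowest in GC at 39.8%, lies at 65.2 FPKM, above EIF3M, EIF3J and EIF3A, while EIF1 and EIF5A lie above the rest at their GC content.

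The genes that regulate or assist the factors comprise 49 listed names, of which 39 were counted, 6 sat in joined loci and 5 were under the filter, with 1 name in both of these groups. Of the 39, MTIF2 was listed at 0 in PRSS35, so no fold is given for it. Of the other 38, 1 was higher by 2-fold and 0 were lower, against 1.89% and 1.88% of all genes, and at 1.5-fold 1 was higher and 1 lower, against 4.38% and 3.56%. Bounds were apart and higher in PRSS35 for 11 of the 38 and lower for 6, or 28.9% and 15.8%, which is near the 24.9% and 14.0% of all genes.

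Among the eIF2 kinases and the genes of the integrated stress response, 0 of 9 counted names passed 1.5-fold. Of all genes 4.38% were higher and 3.56% lower, and at such shares a list of this size would hold few or none. EIF2AK1, the heme-regulated kinase, was at 32.8 FPKM (31.2 to 34.4) and 46.4 (44.4 to 48.3). The other 3 kinases were lower in level, with EIF2AK4, the sensor of uncharged tRNA, at 11.6 and 9.82, EIF2AK2 at 3.51 and 4.31 and EIF2AK3 at 0.996 and 1.39. ATF4, the transcription factor whose translation rises when eIF2 is phosphorylated, was the highest of the list at 383.1 (366.0 to 400.2) and 441.1 (421.6 to 460.6). DDIT3 was listed at 0 in both libraries.

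Of the 12 counted names of mTORC1 and eIF4E control, 0 passed 1.5-fold, against 4.38% higher and 3.56% lower of all genes. This list too would hold few or none at such shares. The highest by level was MLST8, a subunit of the kinase complex, at 251.7 and 221.1 FPKM. AKT1S1, an inhibitor of mTORC1, was at 217.9 (211.6 to 224.2) and 162.3 (156.9 to 167.7). The kinases that phosphorylate EIF4E were at 9.60 and 13.2 for MKNK1 and at 51.9 and 62.0 for MKNK2, with bounds apart and higher for both.

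PAIP2, which keeps the poly(A)-binding protein from the scaffold EIF4G1, was the one name that was 2-fold higher. It had 25.6 FPKM (23.6 to 27.5) in EV and 66.4 (58.8 to 74.0) in PRSS35, a log2 change of 1.34. Its locus kept the annotation in EV and was assembled anew in PRSS35, and the part of this in the change was not tested. MTIF2, a mitochondrial initiation factor, had 6.14 FPKM in EV and was listed at 0 in PRSS35 at an assembled locus, while MTIF3 was listed at 0 in both. Such a 0 may be a failed estimate and is not counted as a decrease. GSPT1, a release factor that ends translation, was at 81.6 (77.2 to 86.1) and 51.1 (48.9 to 53.3), a log2 change of -0.67. The highest by level in the list of elongation and release, EEF1G, had 2704 and 2797 FPKM at a joined locus, and PABPC1, the highest of the mRNA end partners, had 166.1 and 153.9 at a joined locus. DHPS and DOHH, the enzymes that make hypusine on EIF5A, were at 120.2 and 83.2 FPKM in EV and at 119.1 and 72.3 in PRSS35.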

How the data were processed

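RNA from 1 EV library and 1 PRSS35 library was sequenced by the authors, who aligned the reads to hg19 with TopHat2 2.1.0 and estimated genes with Cufflinks 2.2.1 (the submitters' processing notes name Cuffdiff 2.2.1). The deposited FPKM values are scaled by transcript length and mapped fragments and come with a lower and an upper bound. The annotation release and the options are not given in the sources used here. Loci were assembled in each library separately, which can join neighbours or change a value.

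Joined loci were counted for each of their names, entries on contigs other than the assembled chromosomes were not used, and the FPKM of loci with 1 name was summed. Changes used a pseudocount of 1 FPKM, which understates those of low genes, a mean FPKM of at least 1 and a 2-fold size rule in place of a test. The upper bound was taken to be 2 SDs above FPKM. The call rule was tested on simulated data that held error within a library only. That test says nothing of the spread among cultures, of assembly or of scaling. The members and lists were chosen with earlier results of these data known. Named were, in each role group, the highest and lowest by level and by change, members past 1.5-fold, joined members and members listed at 0. Other genes named, and the ratios to EIF4E and EIF3M, were chosen after their values were seen. GC content, exons and 50-base stretches came from GENCODE v44lift37 on GRCh37, in which all 51 members looked up were found by symbol and overlapped their deposited locus in position. Of all counted genes, 92.4% had a transcript there. The software was pandas 2.3.3 and numpy 2.4.6 under Python 3.11.15, with matplotlib 3.10.9 for figures. Alternatives were other pseudocounts, filters, scalings and thresholds, the highest locus per name, joined loci included and only loci that kept their annotation.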

Additional observations from a re-analysis of the deposited data

How the results depend on the processing

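The count of 0 factors 2-fold higher became 8 after rescaling to the total of every locus (EIF1B, EIF2B1, EIF2D, EIF2S2, EIF3M, EIF4E2, EIF4EBP2 and EIF4G3) and 1 at 1.5-fold (EIF3M), also with a pseudocount of 0.1 FPKM. Of all counted genes 12.0% were higher after this rescaling, 4.38% at 1.5-fold and 6.64% at 1.5-fold with a pseudocount of 0.1 FPKM. The count of factors stayed at 0 with the other alternatives. A higher filter on mean FPKM, loci that kept their annotation and the highest locus per name could not raise it. Nor could they raise the count of lower factors, since they add no factor and change no value of the 41. The count of 0 lower became 2 (EIF2A and EIF4E) at 1.5-fold with a pseudocount of 0.1 FPKM and 2 at 1.5-fold with centring, and stayed at 0 with the others. The combinations with 1.5-fold were added after seeing the data. The median log2 change of 0.09 became 0.77 after rescaling to the total of every locus, and -0.021 among the 12 factors that kept their annotated locus in both libraries, when the median of all genes was 0.69 and 0.08. With the other alternatives it lay between 0.02 and 0.13. The 16 factors with bounds apart and higher and the 5 with bounds apart and lower became 10 and 9 with centring on the median gene and 3 and 1 among loci that kept their annotation, where 12 factors in place of 41 were counted. Over all genes the shares were 18.1% and 18.9% with centring. Among loci that kept their annotation they were 23.5% and 6.81%, and the 3 and 1 of 12 factors were near these. Taking the highest locus per name in place of the sum could not change the ratios between paralogs and between subunits. Every gene that sets these ratios had 1 locus in each library. Single gene values under each alternative were added after seeing the data. Of 53 single genes, 17 changed sign after rescaling to the total of every locus, 6 with centring and 2 with the sum over named loci, since these scalings shift all genes nearly alike. No paired analysis was possible because EV and PRSS35 are 1 library each. The number of fragments behind each value is not in the values used here, so the bounds alone limit what can be resolved.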
